A study of Mus musculus with 16 samples.

Results

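The 40 genes described here encode proteins that take a cell from G2 through mitosis and cytokinesis. They are a fixed list of gene names, and all 40 were found among the 35968 genes to which the deposited transcript estimates could be summed. By role they comprise 6 genes of the Cdk1 engine, 6 mitotic kinase and chromosomal passenger genes, 10 kinetochore and spindle checkpoint genes, 6 spindle motors and organisers, 4 genes of anaphase, 6 genes of the central spindle and cytokinesis, and a pair of chromosome and proliferation markers, Top2a and Mki67. The study sequenced poly(A) RNA from mouse embryonic stem cells (ESCs), which are cultured pluripotent cells of the early embryo. Wild-type cells and Dgcr8 knockout cells (KO) were each grown in normal ESC culture or in culture with an mTOR inhibitor, which the labels call paused, and cells were taken on day 2. This gives 4 groups of 4 libraries, 16 in all: wild type in normal culture, wild type paused, KO in normal culture and KO paused. The labels name neither the inhibitor nor its dose, the strain of the lines, the clones used, nor the part of Dgcr8 that is deleted, and they do not say whether replicates came from separate cultures. The p-values therefore measure the spread between these libraries, which may be technical.

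Entry into mitosis is driven by the kinase Cdk1 bound to A- and B-type cyclins, and is opened by the Cdc25 phosphatases and by Plk1 and the Aurora kinases. Kinetochores then attach chromosomes to the spindle, the spindle checkpoint holds the cell until all are attached, and the anaphase-promoting complex with Cdc20 and Ube2c marks cyclin B and securin for destruction. Most of these genes are transcribed in a wave that peaks in G2 and mitosis, through CHR elements bound by the MuvB complex with B-Myb and FoxM1 and through CCAAT boxes bound by NF-Y, so in asynchronous cells their RNA follows the share of cells in those phases as well as the amount per cell. Those alternatives, fewer cells in G2 and mitosis or less RNA per cell, cannot be told apart in bulk RNA. mTOR is a kinase that couples nutrients to growth, and its inhibition slows the proliferation of ESCs. Dgcr8 is the RNA-binding partner of Drosha in microRNA processing, and ESCs without it lack canonical microRNAs and are known to linger in G1.

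The promoters are shown because they carry the sequence features that this group of genes shares and that the choice of members did not use. RefSeq promoter windows of the GRCm38.p6 build, running from 250 bases before to 50 bases after the annotated start, could be matched for 33 of the 40 genes. The core of the CHR element, TTTGAA, was present on either strand for 24 of the 33 genes (72.7%) and for 20.2% of all 27025 genes with a window. A match in any window of a gene counted. A match starting within 50 bases of the start site was found in 22 of the 33 (66.7%) against 5.7% of all genes. CCAAT, on either strand, was present in 25 of 33 (75.8%) against 41.1%, and at least 2 copies in 16 (48.5%) against 13.3%. TTTGAA and CCAAT stood together in a window of 21 of the 33 genes (63.6%) and of 8.0% of all genes. The variant core TTCGAA was rarer, in 4 of the 33 (12.1%) against 1.8%. Matches of the motifs were allowed to overlap, and they are a description of the windows, not mapped binding sites. The first listed windows of the mitotic cyclins, their kinase, the activator Cdc20 and the centromeric histone Cenpa are printed 5′ to 3′ on the gene's strand. Every TTTGAA and CCAAT, on either strand, is in capitals.
Ccnb1, chr13:100786437-100786736, minus strand: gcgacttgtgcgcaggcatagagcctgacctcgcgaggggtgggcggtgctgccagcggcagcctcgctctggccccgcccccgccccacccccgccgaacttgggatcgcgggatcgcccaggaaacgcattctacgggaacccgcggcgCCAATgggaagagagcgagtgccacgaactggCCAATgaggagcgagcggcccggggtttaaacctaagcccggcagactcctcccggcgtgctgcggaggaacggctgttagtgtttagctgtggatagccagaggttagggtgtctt
Ccnb2, chr9:70421505-70421804, minus strand: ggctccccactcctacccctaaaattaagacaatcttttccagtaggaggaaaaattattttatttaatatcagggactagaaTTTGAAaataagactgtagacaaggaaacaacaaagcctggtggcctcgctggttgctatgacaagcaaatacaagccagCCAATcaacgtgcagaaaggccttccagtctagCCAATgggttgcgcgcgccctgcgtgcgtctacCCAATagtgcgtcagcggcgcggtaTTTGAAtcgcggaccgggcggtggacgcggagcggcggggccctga
Cdk1, chr10:69352863-69353162, minus strand: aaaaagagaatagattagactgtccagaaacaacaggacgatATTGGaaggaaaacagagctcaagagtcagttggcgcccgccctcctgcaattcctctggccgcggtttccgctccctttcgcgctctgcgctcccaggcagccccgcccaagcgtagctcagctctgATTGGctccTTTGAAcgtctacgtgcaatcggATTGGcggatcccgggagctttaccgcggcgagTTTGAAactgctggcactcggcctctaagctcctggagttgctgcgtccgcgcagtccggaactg
Cdc20, chr4:118437294-118437593, minus strand: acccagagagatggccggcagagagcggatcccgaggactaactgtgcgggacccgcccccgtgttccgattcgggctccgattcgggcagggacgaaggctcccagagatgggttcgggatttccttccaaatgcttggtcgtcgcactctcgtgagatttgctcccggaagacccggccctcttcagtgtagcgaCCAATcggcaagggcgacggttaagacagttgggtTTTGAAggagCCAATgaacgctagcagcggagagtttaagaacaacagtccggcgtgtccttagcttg
Cenpa, chr5:30666636-30666935, plus strand: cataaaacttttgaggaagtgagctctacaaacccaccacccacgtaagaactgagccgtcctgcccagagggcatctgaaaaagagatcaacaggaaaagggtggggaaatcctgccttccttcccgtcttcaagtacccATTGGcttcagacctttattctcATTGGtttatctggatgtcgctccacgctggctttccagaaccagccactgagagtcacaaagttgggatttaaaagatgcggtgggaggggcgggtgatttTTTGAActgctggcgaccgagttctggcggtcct
In this window Ccnb1 had 2 CCAAT matches and no TTTGAA. Ccnb2 had TTTGAA at 4 bases after and 167 bases before the start and 3 CCAAT matches between them, and Cdk1 had TTTGAA at both 71 and 15 bases before the start and 3 reversed CCAAT matches.

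Libraries held between 88377380 and 116646028 estimated counts. TMM scaling factors were 0.933 to 0.970 in normal culture and 1.042 to 1.069 in paused culture, so the factors moved with the treatment in both genotypes. With library totals alone and no scaling factors, a choice tried after the data were seen, the log2 change of each of the 40 genes with pausing was 0.15 higher in each genotype, while the difference between genotypes within a culture moved little. Each pausing value below therefore rests on that scaling, and the counts, groups and genes whose calls it alters are named with their values. Among replicates, wild-type normal libraries 1 and 2 stood apart from 3 and 4: the median chi-square of counts was 10.5 to 14.6 across these pairs and 2.24 to 2.73 within them. The same split was seen in paused wild-type libraries, with 3.69 to 4.82 across and 1.33 and 2.25 within, and in normal KO libraries, with 3.73 to 5.95 across and 1.99 and 2.88 within, but not in paused KO libraries. With a term for replicates 1 and 2 against 3 and 4 in the fit, 14 of the 40 genes rose and 20 fell with pausing in the wild type, 6 rose and 28 fell in KO cells, the responses passed the test above 0 for 4 and below 0 for 22, and KO was higher and lower for 19 and 14 in normal and 6 and 23 in paused culture. No pair of libraries agreed closely enough to be a repeat. Dgcr8 RNA, measured to check the labels, was at 45.3 to 56.2 CPM in wild-type libraries and 173 to 256 in KO libraries. The labels do not say which exons are deleted, so this level checks neither the deletion nor the loss of protein. All 9 ESC markers were present, with a summed level of 6735 to 9396 TPM. Of 11 fibroblast markers 8 were under 1 TPM in every library, and the summed levels were 11.04 to 14.7 TPM in wild-type and 25.2 to 33.7 TPM in KO libraries. Of 7 endoderm markers 2 were under 1 TPM in every library, and the sums were 7.46 to 12.95 TPM in wild-type and 3.32 to 5.38 TPM in KO libraries. Of 7 trophoblast markers 4 were under 1 TPM in every library. Their sums were 33.15 to 37.2 TPM in normal and 22.4 to 30.8 in paused wild-type libraries, and 20.1 to 21.7 in normal and 42.9 to 46.0 in paused KO libraries. Any part of these marker differences in the results below was not tested.

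All 40 genes were measured well above the low-count filter, the thinnest with 791 counts in its lowest library. On the length-corrected TPM scale the most abundant in wild-type cells in normal culture were Ube2c at 394 ± 23.3 TPM (mean ± SD, n = 4), Cdk1 at 331 ± 14.5, Cdc20 at 321 ± 17.6 and Ccnb1 at 307 ± 31.9. These levels lie within a few SDs of each other, and Cdc20 and Ccnb1 differ by less than their spread. The lowest were Cdc25b at 10.4 ± 1.04, Cdc25c at 16.6 ± 1.60, Cenpf at 18.5 ± 4.95 and Cenpe at 19.1 ± 3.25 TPM. From here on values in single libraries are TMM-scaled CPM, counts scaled to a common library total, which compare a gene across libraries and not with other genes. Differences are log2 fold changes ± SE from edgeR's quasi-likelihood test, and a gene is said to rise or fall where its Benjamini-Hochberg adjusted p over 18944 genes is under 0.05.

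Pausing shifted these genes in different directions in wild-type cells and mostly downwards in KO cells. In wild-type cells 13 of the 40 rose, 19 fell and 8 did not pass the test. Over all genes tested 60.7% passed, 33.3% by rising and 27.5% by falling, so the share of these genes that rose was near the background and the share that fell, 47.5%, was above it. The background here and below includes genes near the low-count filter, where changes are harder to call. All 40 genes had at least 791 counts, so these shares are not compared at like abundance. The median log2 change of the 40 was −0.07, against 0.04 over all genes, and none of the 40 changed 2-fold. Replicates 1 and 2 alone gave 12 and 19, and replicates 3 and 4 alone, with the other pair of normal wild-type libraries, gave 16 and 15. Without scaling factors 20 rose and 11 fell, against 8223 and 3665 of all 18944 genes. The median of the 40 was then 0.08 and that of all genes was 0.19. In KO cells 6 rose and 28 fell, against 34.4% and 32.8% of all genes (67.2% in either direction), and the median was −0.26 against 0.02. Without scaling factors 12 rose and 20 fell in KO cells, against 8284 and 4638 of all genes. The medians were then −0.11 for the 40 and 0.17 for all genes. The 4 paused wild-type libraries lay above all 4 normal ones for 13 genes and below them for 20, against a background of 29.9% and 24.2% of genes. In KO cells the corresponding counts were 6 and 28, against 32.7% and 31.3%.

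**Figure D1:**
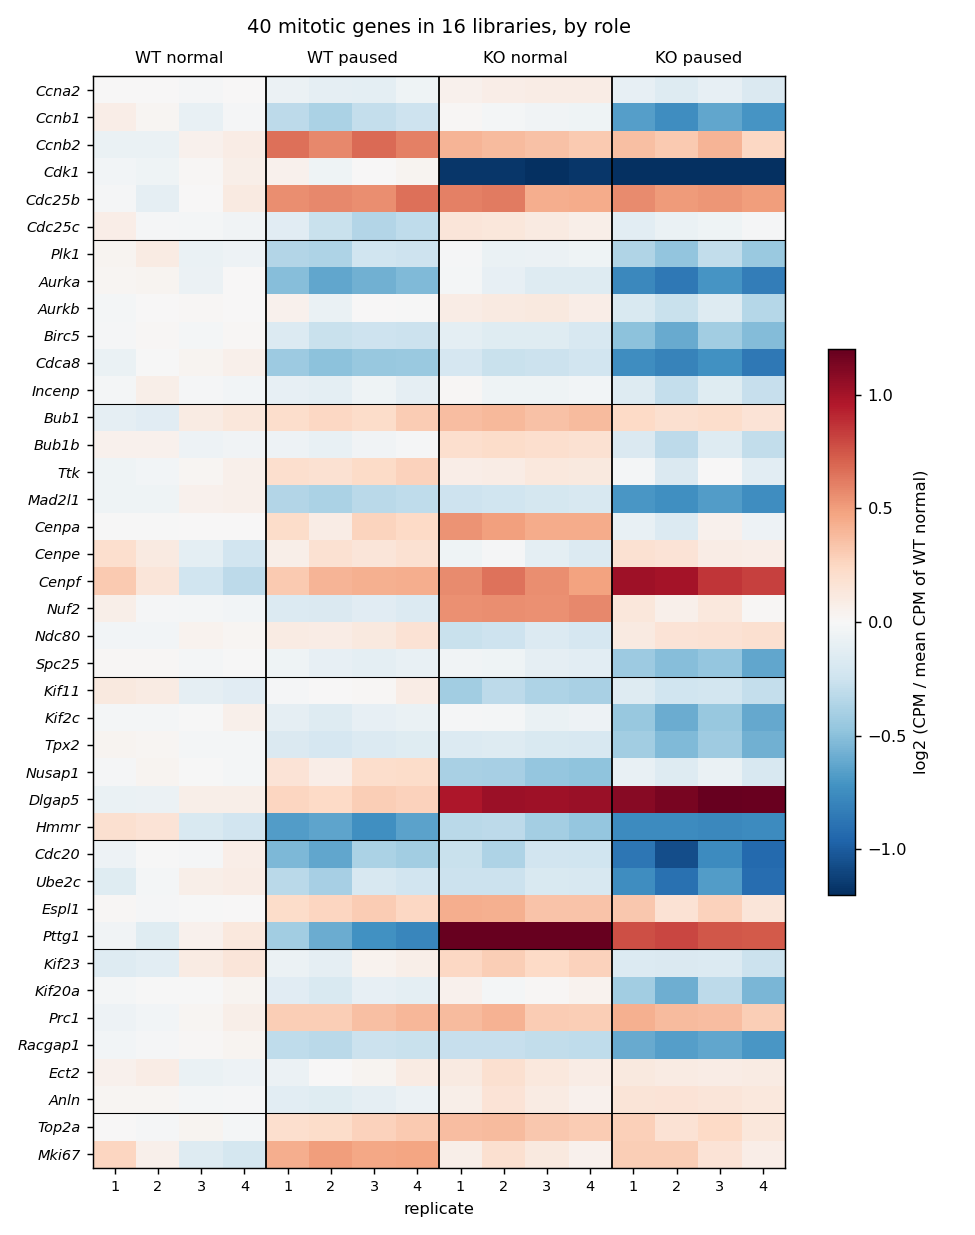
Levels of the 40 genes in each of the 16 libraries, as log2 of CPM over the mean of wild-type cells in normal culture; rows are genes ordered by role, columns are libraries by group, and the colour scale is limited to ±1.2. The paused KO columns are below the wild-type mean for most rows, Cdk1 is low and Pttg1 and Dlgap5 are high in all 8 KO libraries.

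The responses of the genotypes also differed for many of these genes. The difference of the pausing responses, KO minus wild type, passed the test below 0 for 21 of the 40 genes and above 0 for 4, against 24.5% and 17.4% of all genes (41.9% in either direction). The median difference was −0.14 against −0.03 over all genes, and because it compares responses it was hardly touched by scaling, with 21 and 4 calls also without scaling factors. Replicates 1 and 2 alone gave 21 calls below and 7 above 0, and replicates 3 and 4 alone 22 and 4. The number above 0 is small and was 2 with no filter on low counts and 1 on length-scaled TPM counts. Joint patterns over the genotypes were counted for the 40 genes only. Singly, 60.7% of all genes passed in wild-type and 67.2% in KO cells. Taken gene by gene, 18 fell in both genotypes, 4 rose in both (Cenpf, Ndc80, Nusap1 and Dlgap5), and 5 rose in the wild type but fell in the KO (Bub1, Ttk, Cenpa, Espl1 and Top2a). Of these 5 only Cenpa still fell in KO cells without scaling factors, where the others were at −0.02 (Bub1), −0.03 (Ttk), 0.00 (Espl1) and 0.02 (Top2a). On length-scaled TPM counts the wild-type rise of Cenpa (0.09, adjusted p = 0.2) was not called. Neither were the KO falls of Espl1 (−0.06, 0.31) and Top2a (−0.01, 0.73). Another 4 rose in wild-type cells and did not pass the test in KO cells (Ccnb2, Cdc25b, Prc1 and Mki67), and 5 that did not pass in the wild type fell in KO cells (Cdk1, Aurkb, Bub1b, Spc25 and Kif23). Cenpe and Kif11 passed only as a rise in KO cells, Anln only as a fall in wild-type cells, and Ect2 passed in neither. These groupings rest on the scaling: without its factors Cdk1 (0.16), Cenpe (0.29), Kif11 (0.17), Ect2 (0.17), Aurkb (0.14), Bub1b (0.10) and Kif23 (0.14) also passed as rises in wild-type cells, and Prc1 (0.17), Anln (0.21), Mki67 (0.25), Ccnb2 (0.12), Cdc25b (0.15) and Ect2 (0.12) in KO cells. Falls were lost too. Of the 18 that fell in both, Ccna2 (0.06 and −0.06), Cdc25c (−0.12 and −0.03) and Incenp (0.05 and −0.03) then passed in neither genotype. Nuf2 (−0.01), Kif2c (0.04), Tpx2 (−0.02) and Kif20a (0.01) no longer passed in wild-type cells. Neither did Anln (0.04) there, nor Cdk1 (0.04) in KO cells.

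**Figure D2:**
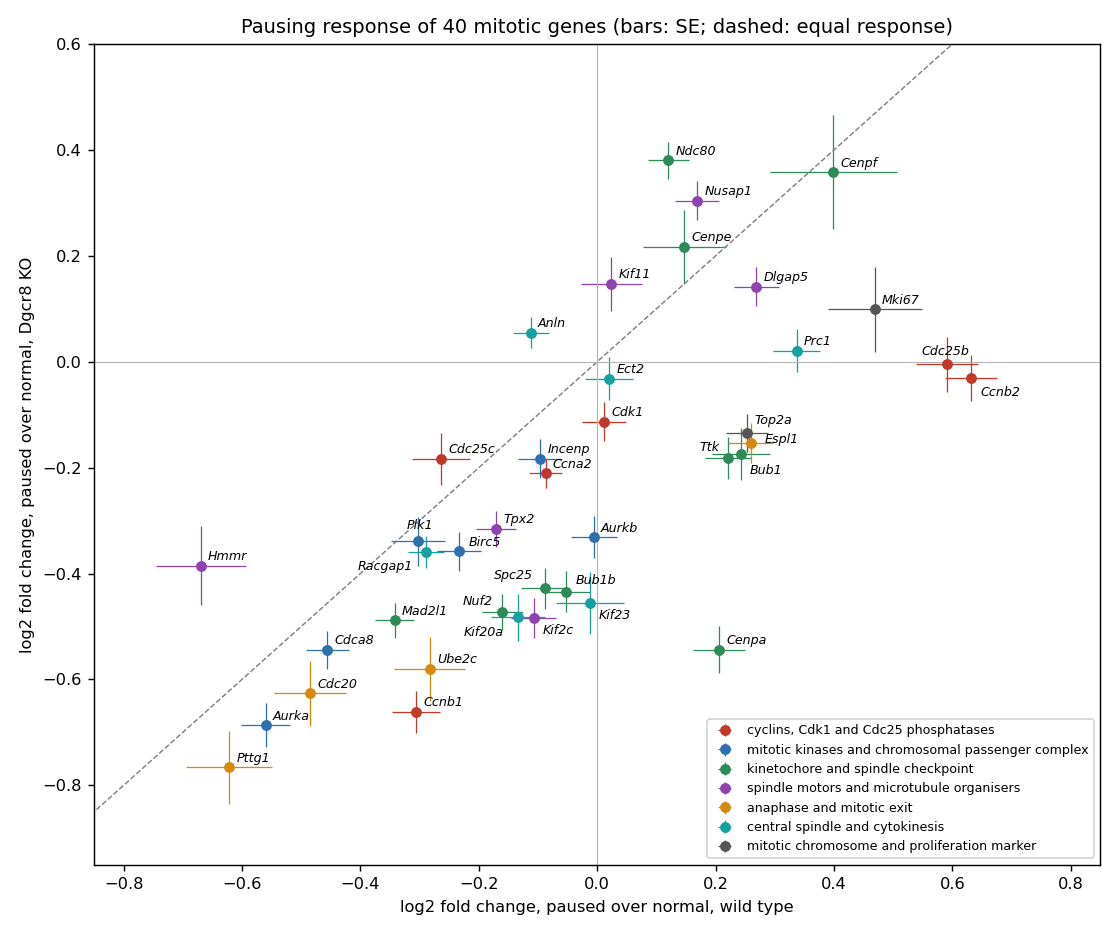
Log2 change with pausing in wild-type cells (x axis) and in KO cells (y axis) for the 40 genes, coloured by role, with bars of 1 SE from the edgeR fit on 4 libraries per group; the dashed line marks equal responses. Most points lie below the line, furthest for Cenpa, Ccnb2 and Cdc25b, and Hmmr, Ndc80, Anln and Nusap1 lie above it. Kif11, Cdc25c and Cenpe also lie above it, without a called difference.

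Between genotypes these genes differed in both directions in normal culture, and in paused culture most of those that passed were lower in KO cells. In normal culture 19 of the 40 were higher in KO than in wild-type cells and 13 lower, against 34.1% of all genes in each direction and 68.2% in either, and the median difference was 0.05 against −0.03. Replicates 1 and 2 alone gave 14 and 13, and replicates 3 and 4 alone 18 and 13. The excess of higher over lower calls turned round, to 13 higher and 15 lower, with a minimum count of 50 and with protein-coding transcripts only, each with a median of 0.00 over the 40, while the counts were 15 and 14 with RLE size factors 16 and 14 with DESeq2, and 13 and 14 without wild-type normal replicate 3. In paused culture 6 were higher and 23 lower, against 30.8% and 34.5% of all genes (65.4% in all), and the median was −0.21 against −0.03. KO and wild-type libraries did not overlap for 18 genes higher and 13 lower in normal culture, against 31.0% and 29.5% of all genes, and for 6 and 24 in paused culture, against 30.5% and 32.9%. The genes higher in KO in both cultures were Cdc25c, Cenpf, Nuf2, Dlgap5, Pttg1 and Anln, and 11 were lower in both. Ccnb2, Aurkb, Bub1b, Ttk, Cenpa and Kif23 were higher in KO in normal culture and lower in paused culture. The normal-culture calls of Cdc25c, Aurkb and Ttk were lost with RLE size factors, DESeq2, a minimum count of 50 and protein-coding transcripts only. Their adjusted p was then 0.056 to 0.31. Leaving out 1 library also ended that call in 6 fits for Cdc25c, 5 for Aurkb and 4 for Ttk. The paused-culture call of Kif23 was lost on length-scaled TPM counts (−0.16, adjusted p = 0.071). These joint patterns over the cultures were counted for the 40 genes only, not over all genes.

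Among the genes of the Cdk1 engine, Ccnb1, the cyclin B that brings Cdk1 into mitosis, was at 485, 465, 429.6 and 453 CPM in wild-type cells in normal culture, 368, 353, 375 and 386 when these were paused, 464, 452, 446 and 441 in KO cells in normal culture and 290.5, 272, 298 and 279.6 in paused KO cells. Normal and paused libraries did not overlap in either genotype, and the paused KO libraries were the lowest of the 16. Ccnb1 fell by 0.31 ± 0.04 on the log2 scale with pausing in wild-type cells (adjusted p = 2.1e-06) and by 0.66 ± 0.04 in KO cells (adjusted p = 6.5e-11), and the responses differed by −0.35 ± 0.06 (adjusted p = 7.2e-05). KO and wild-type libraries overlapped in normal culture (−0.02 ± 0.04). Of the 31-base stretches of Ccnb1 transcripts 27.8% also occur in other genes, mostly in the processed copy Ccnb1-ps, which had a mean of 15.2 counts against 38513 for Ccnb1.

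Ccnb2, the second B-type cyclin, was at 89.04, 89.1, 97.3 and 100.2 CPM in wild-type cells in normal culture, 149, 140.0, 150.5 and 143 when these were paused, 124, 122, 120.1 and 117 in KO cells in normal culture and 121, 117, 124 and 112 in paused KO cells. The paused wild-type libraries stood above the other 12, and the KO libraries of both cultures overlapped each other and lay between the wild-type groups. Ccnb2 rose by 0.63 ± 0.04 with pausing in wild-type cells (adjusted p = 4.6e-10), while in KO cells the change was −0.03 ± 0.04 (adjusted p = 0.55), or 0.12 without scaling factors, and the responses differed by −0.66 ± 0.06. The B-type cyclins, whose promoters are printed above, thus went in opposite directions with pausing in wild-type cells. KO differed from wild type for Ccnb2 by 0.36 ± 0.04 in normal culture and by −0.30 ± 0.04 in paused culture.

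Ccna2, the cyclin of S phase and early mitosis, was at 265, 266, 263 and 266 CPM in wild-type cells in normal culture, 252, 246, 245 and 255 when these were paused, 275, 281, 282 and 282 in KO cells in normal culture and 248, 238, 247 and 235 in paused KO cells. Paused libraries were below normal ones in each genotype, by a narrow gap in wild-type cells. Ccna2 fell by 0.09 ± 0.03 with pausing in wild-type cells, a change that was 0.06 without scaling factors, and by 0.21 ± 0.03 in KO cells, or −0.06 and no call without them. Of its 31-base stretches 12.0% occur in other genes, nearly all of them in Exosc9 (11.8%). Exosc9 had a mean of 4280 counts against 25664 for Ccna2.

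Cdk1 itself, the mitotic kinase, was at 199, 197, 206 and 214 CPM in normal and 212, 197, 205 and 208 in paused wild-type libraries, and 90.7, 90.7, 89.2 and 90.6 in normal and 85.9, 81.00, 87.8 and 79.2 in paused KO libraries. All 8 KO libraries lay far below all 8 wild-type ones, with no overlap. KO differed from wild type by −1.18 ± 0.04 in normal culture (0.443 times wild type, adjusted p = 1.6e-14) and by −1.30 ± 0.04 in paused culture (0.406 times, adjusted p = 7.1e-15). Pausing left wild-type libraries overlapping (0.01 ± 0.04, or 0.16 and a rise without scaling factors) and Cdk1 fell by 0.11 ± 0.04 in KO cells, a change that was 0.04 without scaling factors and missed the threshold without KO paused replicate 4 (adjusted p = 0.057).

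Cdc25b, the phosphatase thought to start Cdk1 activation at the centrosome, was at 19.8, 18.6, 20.01 and 21.5 CPM in wild-type cells in normal culture, 29.5, 29.9, 29.5 and 31.5 when these were paused, 30.4, 30.9, 27.01 and 27.3 in KO cells in normal culture and 29.6, 28.4, 28.8 and 28.3 in paused KO cells. Normal wild-type libraries were the lowest of the 16. Cdc25b rose by 0.59 ± 0.05 with pausing in wild-type cells, while the paused and normal KO libraries overlapped (−0.01 ± 0.05, or 0.15 without scaling factors), and KO exceeded wild type by 0.53 ± 0.05 in normal culture. Cdc25c, its relative that acts on the nuclear pool of cyclin B-Cdk1, fell in both genotypes, from 22.1 ± 0.887 to 18.4 ± 1.19 CPM in wild-type and from 23.9 ± 0.556 to 21.1 ± 0.723 in KO cells, and neither call stood without scaling factors (−0.12 and −0.03). It shares 13.2% of its 31-base stretches with other genes, mostly with Gm3550, which had a mean of 75.5 counts against 2115 for Cdc25c.

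**Figure D3:**
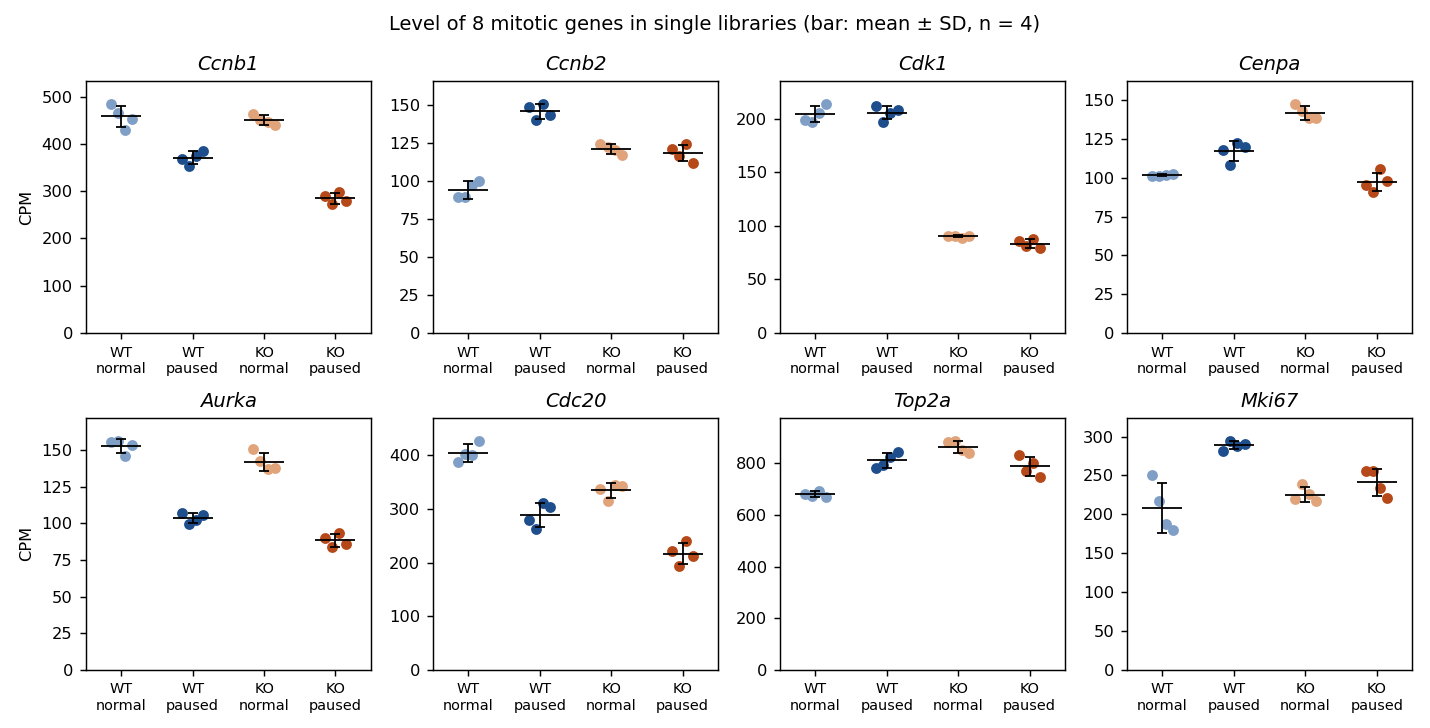
CPM of 8 of the genes in every library by group, with the group mean and SD (n = 4 libraries each); the y axes differ between panels. Cdk1 separates the genotypes, Aurka and Cdc20 separate the cultures in both genotypes, Ccnb2 is highest in paused wild-type libraries and Cenpa in normal KO libraries.

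Plk1, the kinase that activates Cdc25 and builds the centrosome and cytokinesis machinery, was at 249.8, 261, 231 and 234 CPM in wild-type cells in normal culture, 191, 188, 207 and 205 when these were paused, 242, 231, 233 and 236 in KO cells in normal culture and 190.3, 176, 199 and 179 in paused KO cells. The normal and paused libraries of each genotype did not overlap, and the genotypes overlapped within each culture. Plk1 fell by 0.30 ± 0.05 in wild-type and by 0.34 ± 0.05 in KO cells, with a difference of −0.04 ± 0.07 (adjusted p = 0.69). Part of its sequence, 14.8% of the 31-base stretches, occurs also in its processed copy Plk-ps1, which had a mean of 81.4 counts against 21332 for Plk1.

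Aurka, the Aurora kinase of the centrosome and spindle poles, was at 156, 157, 146 and 153 CPM in wild-type cells in normal culture, 107, 99.5, 102 and 106 when these were paused, 151, 142, 138 and 138 in KO cells in normal culture and 89.7, 84.2, 93.7 and 85.9 in paused KO cells. Paused libraries were well below normal ones in both genotypes, and KO was lowest when paused. Aurka fell by 0.56 ± 0.04 in wild-type (adjusted p = 9.5e-10) and by 0.69 ± 0.04 in KO cells (adjusted p = 5.1e-11), and the difference of −0.13 ± 0.06 did not pass the test. Aurkb, the Aurora kinase of the chromosomal passenger complex, was at 81.4, 82.8, 83.4 and 83.1 CPM in normal and 85.6, 78.2, 83.1 and 82.5 in paused wild-type libraries, and 87.9, 88.9, 89.4 and 87.4 in normal and 72.7, 68.8, 74.4 and 65.04 in paused KO libraries. Wild-type libraries overlapped between cultures and KO libraries did not: the change was −0.01 ± 0.04 in wild-type cells, or 0.14 without scaling factors, and Aurkb fell by 0.33 ± 0.04 in KO cells, a difference of −0.33 ± 0.06 (adjusted p = 0.00013).

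The other members of the passenger complex, which carry Aurkb to centromeres and the midzone, fell in both genotypes. Cdca8, or borealin, was at 151, 159, 164 and 167 CPM in normal and 119, 114, 117 and 118 in paused wild-type libraries, and 139, 133, 134 and 137 in normal and 95.5, 92.2, 96.7 and 88.3 in paused KO libraries. Its paused KO libraries were the lowest of the 16 and its normal wild-type libraries the highest. Cdca8 fell by 0.46 ± 0.04 in wild-type and by 0.54 ± 0.04 in KO cells, and KO was lower in both cultures (−0.24 ± 0.04 and −0.33 ± 0.04). Birc5, or survivin, had means of 130.3 ± 1.89 and 111 ± 3.82 CPM in normal and paused wild-type cells and 118 ± 2.63 and 91.7 ± 4.79 in KO cells. Incenp, the scaffold of the complex, had 247 ± 8.03 and 231 ± 4.64 CPM in wild-type and 242 ± 4.90 and 214 ± 11.3 in KO cells, and without scaling factors its wild-type change of −0.10 ± 0.04 was 0.05 and its KO change −0.03, with no call. In this group of 6 kinase and passenger genes 5 fell in wild-type cells, all 6 fell in KO cells and none rose in either, with median changes of −0.27 and −0.35. Over all genes 33.3% rose and 27.5% fell in wild-type cells, and 34.4% and 32.8% in KO cells. These background shares apply also to the scaled counts of the kinetochore, spindle motor, anaphase and cytokinesis groups below. Groups this short do not allow a share to be read closely. Without scaling factors 1 gene of this group, Aurkb, rose and 4 fell in the wild type, and 5 of the 6 fell in the KO.

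Of the 10 kinetochore and checkpoint genes 5 rose and 2 fell in wild-type cells, with a median of 0.13, while in KO cells 3 rose and 7 fell, with a median of −0.31. Without scaling factors the counts were 7 and 1 in wild-type and 3 and 5 in KO cells. Whether this group differs from the kinase group was not tested. Cenpa, the histone H3 variant that marks centromeres, was at 101, 101, 102 and 102 CPM in wild-type cells in normal culture, 118, 108, 122 and 120.0 when these were paused, 148, 143, 138 and 138 in KO cells in normal culture and 95.4, 90.9, 105 and 97.7 in paused KO cells. Normal KO libraries were the highest and paused wild-type libraries next, and paused KO libraries overlapped the normal wild-type ones. Cenpa rose with pausing by 0.21 ± 0.04 in the wild type (adjusted p = 0.00045) but fell by 0.54 ± 0.04 in KO cells (adjusted p = 2.8e-09), and at −0.75 ± 0.06 the responses differed more than for any other of the 40 genes. The wild-type rise depended on the transcripts counted, since with protein-coding transcripts alone the change was −0.32. On length-scaled TPM counts it was 0.09 and not called.

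Bub1, a checkpoint kinase of the kinetochore, was at 115, 113, 132 and 136 CPM in wild-type cells in normal culture, 143, 147, 144 and 153 when these were paused, 161, 163, 158 and 161 in KO cells in normal culture and 146, 142, 143 and 139 in paused KO cells. Normal wild-type libraries were the lowest group for this gene. Bub1 rose with pausing by 0.24 ± 0.05 in the wild type but fell by 0.17 ± 0.05 in KO cells, a difference of −0.42 ± 0.07 (adjusted p = 0.00011). Ttk, the checkpoint kinase Mps1, followed the same signs at 0.22 ± 0.04 and −0.18 ± 0.04. Bub1b, which blocks Cdc20 as part of the checkpoint complex, changed by −0.05 ± 0.04 in wild-type cells (0.10 without scaling factors, and not called as scaled) and fell by 0.43 ± 0.04 in KO cells. Mad2l1, the checkpoint protein that closes around Cdc20, fell by 0.34 ± 0.03 and 0.49 ± 0.03, from 139.9 ± 5.96 to 110.4 ± 2.39 CPM in wild-type and from 119.8 ± 2.07 to 85.4 ± 2.15 in KO cells.

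The Ndc80 complex, the microtubule-binding arm of the kinetochore, did not move as a unit. Ndc80 was at 66.8, 66.5, 70.4 and 69.4 CPM in normal and 73.1, 72.8, 73.8 and 76.96 in paused wild-type libraries, and 56.6, 57.6, 61.04 and 59.2 in normal and 73.4, 76.6, 76.9 and 78.2 in paused KO libraries. Ndc80 rose by 0.12 ± 0.04 in wild-type cells and by 0.38 ± 0.04 in KO cells. The wild-type call was lost without wild-type normal replicate 2 (adjusted p = 0.067) and with only the groups compared (0.08, adjusted p = 0.1). With protein-coding transcripts only Ndc80 changed by 0.03 in wild-type cells (adjusted p = 0.44). Nuf2, its direct partner in the complex, was at 54.1, 51.1, 50.8 and 50.5 CPM in normal and 46.02, 45.8, 46.9 and 46.1 in paused wild-type libraries, and 75.4, 75.9, 75.7 and 77.2 in normal and 56.7, 53.7, 56.5 and 52.2 in paused KO libraries. It fell by 0.16 ± 0.04 (−0.01 and no call without scaling factors) and 0.47 ± 0.03, with the normal KO libraries the highest of the 16. Spc25, a subunit that anchors the complex to the inner kinetochore, was at 59.1, 59.03, 57.5 and 58.3 CPM in normal and 56.5, 54.6, 53.8 and 54.9 in paused wild-type libraries, and 56.95, 56.5, 54.4 and 53.6 in normal and 43.4, 41.03, 42.3 and 37.9 in paused KO libraries. Spc25 fell by 0.43 ± 0.04 in KO cells, and in wild-type cells the paused libraries were all lower but the change of −0.09 ± 0.04 missed the threshold (adjusted p = 0.057). That change passed under 7 alternatives, at −0.13 to −0.09 with adjusted p from 0.0059 with DESeq2 to 0.039 with the replicate block, and its sign turned to 0.06 without scaling factors.

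The long fibrous proteins of the outer kinetochore, Cenpe and Cenpf, gave higher values in paused cells. Cenpf, a corona protein of kinetochores, was at 180.3, 161, 123 and 116 CPM in normal and 181, 193, 195 and 197 in paused wild-type libraries, and 215, 228, 214 and 203 in normal and 294, 289.8, 263 and 256 in paused KO libraries. The spread among replicates was wide for this gene, with an SE of 0.11, and the groups of each comparison were still separate, though paused and normal wild-type libraries nearly met. Cenpf rose by 0.40 ± 0.11 in wild-type cells (0.13 in replicates 1 and 2 alone, adjusted p = 0.061) and 0.36 ± 0.11 in KO cells. The difference of its responses, not called, was 0.26 in replicates 1 and 2 alone and −0.38 in replicates 3 and 4 alone (adjusted p = 6.5e-05). It was higher in KO by 0.57 ± 0.11 in normal and 0.53 ± 0.11 in paused culture. Cenpe, the plus-end motor that gathers chromosomes to the spindle equator, was at 128, 120.3, 103 and 95.2 CPM in normal and 117, 127, 124 and 127 in paused wild-type libraries, and 108, 111, 103 and 99.4 in normal and 126, 125, 119 and 118 in paused KO libraries. The libraries of the genotypes overlapped, and Cenpe rose in KO cells at 0.22 ± 0.07, while the wild-type change of 0.15 ± 0.07 did not pass the test. It did pass with the replicate block (0.15, adjusted p = 0.037), with a term for replicates 1 and 2 against 3 and 4 (0.15, 0.024), on length-scaled TPM counts (0.20, 0.033), without scaling factors (0.29, 0.002) and in replicates 3 and 4 alone (0.33, 3.4e-06).

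Spindle motors and organisers split in each comparison, with 2 rising and 3 falling in wild-type cells and 3 and 3 in KO cells, or 3 and 1 and 3 and 3 without scaling factors. Kif11, the motor that pushes the spindle poles apart, was at 122, 121, 105 and 103 CPM in normal and 112, 113, 114 and 119.7 in paused wild-type libraries, and 84.5, 90.9, 87.3 and 86.2 in normal and 101, 95.8, 96.8 and 92.6 in paused KO libraries. Wild-type libraries overlapped between cultures, and KO libraries lay below wild-type ones in both cultures. Kif11 rose by 0.15 ± 0.05 in KO cells, was 0.02 ± 0.05 in wild-type cells (−0.11 in replicates 1 and 2 alone, and 0.16 with an adjusted p of 0.0014 in replicates 3 and 4 alone), and KO differed from wild type by −0.37 ± 0.05 in normal culture. Kif2c, the microtubule depolymerase MCAK, was at 143, 144, 145 and 152 CPM in normal and 136, 131, 137 and 139 in paused wild-type libraries, and 144, 144, 138 and 139.7 in normal and 106, 96.4, 106 and 95.7 in paused KO libraries. Its paused KO libraries stood below the other 12. Kif2c fell by 0.48 ± 0.04 in KO cells and by 0.11 ± 0.04 in wild-type cells, the latter being 0.04 without scaling factors.

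Nusap1, a microtubule bundler of the spindle, was at 96.3, 99.6, 96.8 and 95.4 CPM in normal and 108, 103, 112 and 113 in paused wild-type libraries, and 73.97, 73.5, 70.5 and 69.5 in normal and 91.04, 87.1, 91.8 and 84.9 in paused KO libraries. Paused libraries lay above normal ones in each genotype and KO below wild type in each culture. Nusap1 rose by 0.17 ± 0.04 in wild-type and 0.30 ± 0.04 in KO cells, and KO differed from wild type by −0.43 ± 0.04 in normal culture. Hmmr, a spindle-pole adaptor also known as RHAMM, was at 227, 224, 176 and 170.2 CPM in normal and 125, 128, 119 and 128 in paused wild-type libraries, and 159, 160.5, 150.3 and 144 in normal and 118, 118, 116 and 118 in paused KO libraries. Its normal wild-type libraries were the highest and spread widely. Hmmr fell by 0.67 ± 0.08 in wild-type cells, further than any other of the 40 genes there, and by 0.39 ± 0.07 in KO cells. Tpx2, the activator of Aurka on spindle microtubules, fell by 0.17 ± 0.03 (−0.02 and no call without scaling factors) and 0.32 ± 0.03.

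Dlgap5, or HURP, which stabilises kinetochore fibres, was at 60.6, 60.97, 66.97 and 67.2 CPM in wild-type cells in normal culture, 76.4, 75.5, 78.7 and 77.7 when these were paused, 126, 130.2, 129.8 and 131 in KO cells in normal culture and 137, 141, 146 and 146 in paused KO cells. All KO libraries lay above all wild-type ones. KO was higher by 1.01 ± 0.04 in normal culture (2.02 times, adjusted p = 9.5e-14) and by 0.89 ± 0.04 in paused culture, and Dlgap5 rose with pausing by 0.27 ± 0.04 in wild-type and 0.14 ± 0.04 in KO cells.

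Of the 4 anaphase genes, 3 fell in wild-type cells and all 4 fell in KO cells, or 3 and 3 without scaling factors. Cdc20, the activator of the anaphase-promoting complex, was at 387, 403, 401 and 427 CPM in wild-type cells in normal culture, 279, 263, 311 and 304 when these were paused, 337, 314, 345 and 342 in KO cells in normal culture and 222, 193, 240.2 and 212 in paused KO cells. Paused libraries lay below normal ones in both genotypes. Cdc20 fell by 0.48 ± 0.06 in wild-type and 0.63 ± 0.06 in KO cells, and KO was lower in both cultures (−0.27 ± 0.06 and −0.42 ± 0.06). Ube2c, the ubiquitin-conjugating enzyme of that complex, was at 219.5, 239.5, 255 and 259 CPM in wild-type cells in normal culture, 194, 184, 213 and 208 when these were paused, 204, 203, 215 and 212 in KO cells in normal culture and 145, 131, 153 and 129 in paused KO cells. Ube2c fell by 0.28 ± 0.06 and 0.58 ± 0.06, a difference of −0.30 ± 0.09. Sequence is shared with other genes over 26.7% of the 31-base stretches of Cdc20, mainly with Gm7856, and over 25.0% of those of Ube2c, mainly with Tnnc2. Gm7856 had a mean of 1.5 counts against 30557 for Cdc20, and Tnnc2 32.6 counts against 19450.0 for Ube2c.

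Pttg1, the securin that holds separase inactive until anaphase, was at 13.8, 12.9, 14.8 and 15.5 CPM in wild-type cells in normal culture, 10.7, 9.45, 8.62 and 8.28 when these were paused, 43.5, 42.7, 38.3 and 39.9 in KO cells in normal culture and 24.3, 24.8, 23.8 and 23.7 in paused KO cells. Every KO library exceeded every wild-type library of the same culture, and paused libraries were lower in both genotypes. KO was higher by 1.53 ± 0.07 in normal culture (2.89 times, adjusted p = 1.6e-12) and 1.39 ± 0.07 in paused culture (2.61 times). Pttg1 fell with pausing by 0.62 ± 0.07 in wild-type and 0.77 ± 0.07 in KO cells. Espl1, the separase that Pttg1 restrains, rose in wild-type cells at 0.26 ± 0.04 and fell in KO cells by 0.15 ± 0.04. The KO fall was not called without scaling factors (0.00) or on length-scaled TPM counts (−0.06).

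In the central spindle and cytokinesis group 1 of 6 rose and 3 fell in wild-type cells, and none rose and 3 fell in KO cells. Without scaling factors the counts were 3 and 1 in wild-type and 3 and 3 in KO cells. Kif23, the centralspindlin motor, was at 114, 116, 135 and 139.8 CPM in normal and 120.2, 117, 129.8 and 133 in paused wild-type libraries, and 150.2, 155, 149 and 153 in normal and 113, 112, 113 and 105 in paused KO libraries. Wild-type libraries overlapped between cultures and KO libraries did not. Kif23 was at −0.01 ± 0.06 in wild-type cells, or 0.14 without scaling factors, and fell by 0.46 ± 0.06 in KO cells. Racgap1, its partner in centralspindlin, was at 172, 174, 178 and 180.5 CPM in normal and 142, 140.2, 147 and 146 in paused wild-type libraries, and 145, 145, 143 and 143 in normal and 115, 111, 114 and 108 in paused KO libraries. Racgap1 fell by 0.29 ± 0.03 and 0.36 ± 0.03, with a difference of responses of −0.07 ± 0.04 that did not pass the test.

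Prc1, which bundles antiparallel microtubules at the midzone, was at 123, 125, 130.2 and 134 CPM in normal and 156, 157, 164 and 169 in paused wild-type libraries, and 166, 171, 158 and 157 in normal and 172, 167, 165 and 157 in paused KO libraries. Normal wild-type libraries were the lowest group. Prc1 rose by 0.34 ± 0.04 in wild-type cells, while KO libraries overlapped at 0.02 ± 0.04, or 0.17 and a rise without scaling factors. Of its 31-base stretches 12.45% occur in other genes, mostly in Rccd1, which had a mean of 2046 counts against 15362 for Prc1. Anln, the contractile-ring scaffold anillin, was at 237, 237, 229 and 231 CPM in normal and 214, 211, 217 and 222 in paused wild-type libraries, and 245, 261, 250.2 and 241 in normal and 261, 262, 258 and 255 in paused KO libraries. Anln fell by 0.11 ± 0.03 in wild-type cells, a change that was 0.04 without scaling factors, and was 0.06 ± 0.03 in KO cells, where it was 0.21 and a rise without them. Kif20a, a midzone kinesin, fell by 0.48 ± 0.04 in KO cells and by 0.13 ± 0.04 in wild-type cells, the latter being 0.01 without scaling factors. Its transcripts share 26.7% of their 31-base stretches with Cdc23, which had a mean of 13675 counts against 25809 for Kif20a. Any effect of this sharing on the estimates was not tested. Ect2, the exchange factor that activates RhoA at the equator, changed by 0.02 ± 0.04 and −0.03 ± 0.04 (0.12 in KO cells without scaling factors), and KO exceeded wild type by 0.13 ± 0.04 in normal culture.

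Top2a, the topoisomerase that untangles sister chromatids, was at 683, 675, 695 and 670.5 CPM in wild-type cells in normal culture, 784, 793, 826 and 844 when these were paused, 882, 888, 851 and 839.9 in KO cells in normal culture and 832, 769, 803 and 749 in paused KO cells. Normal wild-type libraries were the lowest, and paused libraries of the genotypes overlapped. Top2a rose by 0.25 ± 0.04 in the wild type but fell by 0.14 ± 0.04 in KO cells, a change that was 0.02 without scaling factors, and the responses differed by −0.39 ± 0.05 (adjusted p = 9.9e-06). On length-scaled TPM counts the KO change was −0.01 and not called. Mki67, the surfactant of mitotic chromosomes used as a proliferation marker, was at 250.1, 218, 187 and 179.7 CPM in wild-type cells in normal culture, 282, 295, 288 and 290.0 when these were paused, 219, 239, 227 and 217 in KO cells in normal culture and 256, 256, 233 and 221 in paused KO cells. Mki67 rose by 0.47 ± 0.08 in wild-type cells, while KO libraries overlapped (0.10 ± 0.08, or 0.25 and a rise without scaling factors). The difference of −0.37 ± 0.11 between the responses missed the threshold without wild-type normal replicate 3 (adjusted p = 0.055). In replicates 1 and 2 alone it was −0.15 (adjusted p = 0.21).

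The large genotype differences were set beside those of neighbouring genes, since a difference shared with neighbours on the chromosome is not particular to a gene. For each of the 40, the median KO against wild-type log2 difference was taken over the other expressed genes within 5 Mb, 10 to 140 of them. It reached 0.4 in size, a limit chosen after the values were seen, around 4 genes. Cdk1 on chromosome 10 has 16 such neighbours with medians of −0.68 in normal and −0.84 in paused culture. Dlgap5 on chromosome 14 has 41 with 0.76 and 0.88, Cenpf on chromosome 1 has 27 with 0.88 and 0.63, and Nuf2 on chromosome 1 has 48 with 0.66 and 0.62. Each of the 4 genes differed between genotypes in the direction of their neighbours in both cultures. Of the 16 neighbours of Cdk1 13 were lower in KO in normal culture and 2 higher, and of the 41 of Dlgap5 35 were higher and 3 lower. Around the other 36 genes the medians ranged from −0.15 to 0.20 in normal and from −0.30 to 0.14 in paused culture. Pttg1, on chromosome 11, had 15 neighbours with medians of 0.09 and −0.06. Over the 40 genes the gene's own difference and its neighbours' median had a Pearson r of 0.57 in normal and 0.62 in paused culture and a Spearman rho of 0.30 and 0.26, given as a description because they share libraries and some share neighbours. Whether copy number, strain or clone underlies these regions was not tested, and Dgcr8 loss and differences between the lines cannot be told apart for them.

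**Figure D4:**
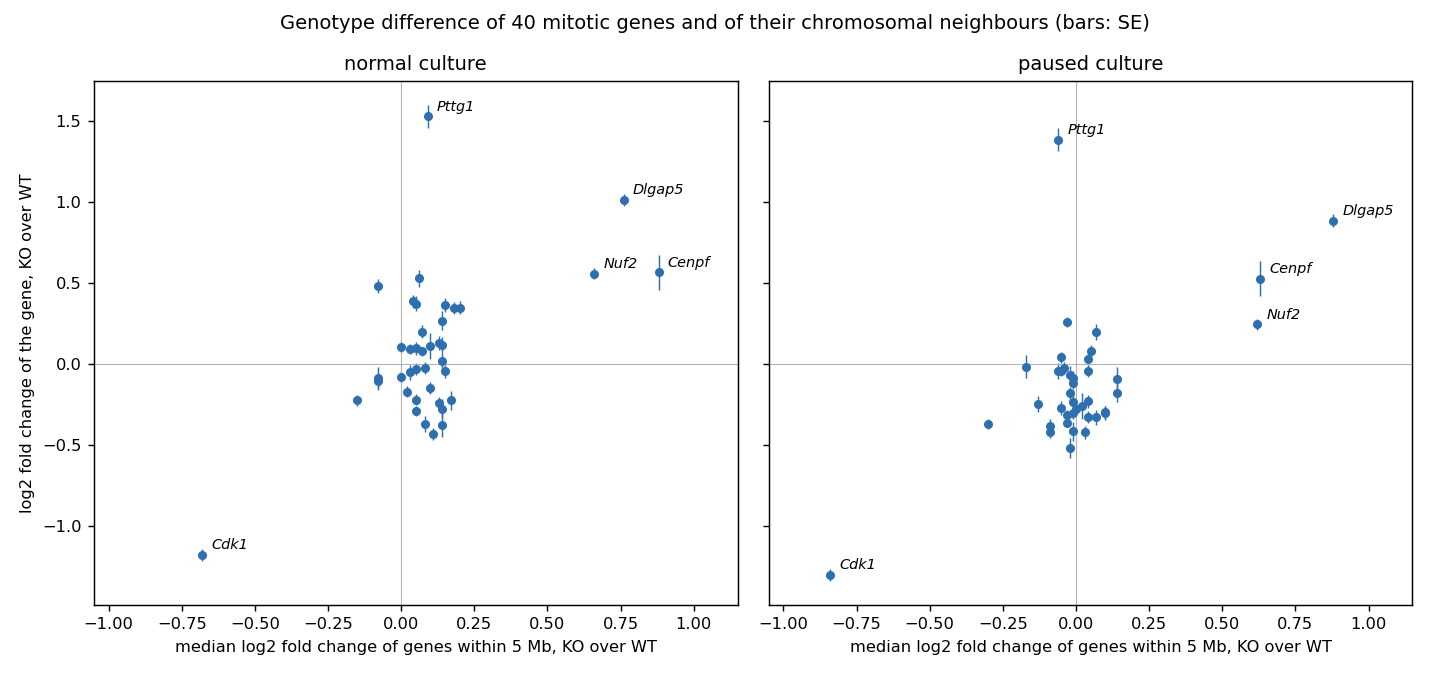
KO against wild-type log2 difference of each of the 40 genes (y axis) against the median difference of expressed genes within 5 Mb (x axis), in normal culture and in paused culture; points are genes. Cdk1 lies far to the left, and Cenpf, Nuf2 and Dlgap5 far to the right, and Pttg1 lies high at a neighbour median near 0.

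For Cdk1 the genotype difference was seen in both main forms. The coding form Cdk1-202 was at 177 ± 10.3 and 212 ± 6.996 TPM (mean ± SD, n = 4) in normal and paused wild-type cells and 83.2 ± 1.63 and 90.0 ± 3.83 in KO cells. The retained-intron form Cdk1-204 was at 124 ± 8.35, 155 ± 5.44, 65.9 ± 4.59 and 73.8 ± 4.25 TPM in the same order. TPM is not scaled by the TMM factors, and on it both forms were higher in all 4 paused than in all 4 normal wild-type libraries, at 206 to 221 against 167 to 188 TPM for Cdk1-202 and 151 to 163 against 115 to 134 for Cdk1-204, unlike the scaled counts of the gene, which overlapped. For Cenpa the form annotated for nonsense-mediated decay, Cenpa-202, was the main one, at 61.6 ± 6.02, 99.1 ± 4.03, 112 ± 3.05 and 83.1 ± 4.56 TPM, while the coding form Cenpa-205 was at 36.0 ± 1.74, 36.2 ± 1.12, 49.4 ± 1.196 and 26.7 ± 0.56. The share of Cenpa TPM in non-coding forms went from 59.0% ± 2.61 to 74.4% ± 2.34 in wild-type and from 63.7% ± 1.02 to 76.0% ± 1.30 in KO cells. The 4 paused libraries were above the 4 normal ones in each genotype.

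Among 33 of the 40 genes with non-coding forms, this share was higher in all 4 paused libraries for 8 genes and lower for 2 in wild-type cells, against 11.7% and 8.82% of 10896 genes. In KO cells 12 were higher and 2 lower, against 27.4% and 6.37%. It was higher in both genotypes for 7 genes, Aurka, Bub1, Cenpa, Incenp, Kif23, Ndc80 and Top2a, and lower in both for Dlgap5 and Mad2l1. Patterns in both genotypes were not counted over all genes. Ect2 went from 3.78% ± 0.47 to 15.04% ± 1.51 in KO cells and from 5.25% ± 1.80 to 7.32% ± 1.80 in wild-type cells, where the libraries overlapped. With 4 against 4 libraries the exact two-sided permutation test cannot go below p = 0.0286, which all non-overlapping genes reached, and over 66 tests the adjusted value was 0.0786, so none passed the correction. Assignment of reads between forms of a gene is a statistical estimate and is less certain than the gene's sum.

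The rest of the mitotic programme was described from 9 lists of other genes, 139 in all. In wild-type cells 52 of the 139 rose with pausing and 49 fell (37.4% and 35.3%, against 33.3% and 27.5% of all genes), with a median of 0.00. In KO cells 38 rose and 67 fell (27.3% and 48.2%, against 34.4% and 32.8%), with a median of −0.09. Without scaling factors 74 rose and 30 fell in wild-type and 65 and 42 in KO cells. Over all 18944 genes 8223 then rose and 3665 fell in wild-type and 8284 and 4638 in KO cells. In KO cells the direction of the larger share of the 139 thus depends on scaling. The responses differed for 67 of the 139, downwards in KO for 56 (40.3%, against 24.5%) and upwards for 11 (7.9%, against 17.4%). The background shares given in percent apply also to the scaled counts of the single lists that follow. Most of these lists are too short for a share to be read closely. The transcription factors of the wave, in a list of 13 with FoxM1, B-Myb and MuvB subunits, rose in 7 cases and fell in 2 in wild-type cells, with a median of 0.20, and rose in 7 and fell in 3 in KO cells. Foxm1, the forkhead factor of G2 genes, rose by 0.62 ± 0.04 in wild-type and 0.22 ± 0.04 in KO cells, and was 0.51 ± 0.04 higher in KO in normal culture. The dimerisation partner Tfdp1, which pairs with E2F factors, fell by 0.61 ± 0.05 and 0.93 ± 0.05, and the pocket protein Rbl1 rose by 0.64 ± 0.06 and 0.51 ± 0.06. MuvB subunit Lin9 was 0.80 ± 0.04 higher in KO in normal culture.

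Of 14 genes of mitotic entry, 4 rose and 8 fell in wild-type and 2 rose and 9 fell in KO cells. The Cdk1 subunit Cks1b fell by 0.45 ± 0.06 and 1.02 ± 0.06. Of 17 genes of the anaphase-promoting complex and its regulators 9 fell and 3 rose in wild-type cells and 13 fell and 3 rose in KO cells. The subunit Anapc16 was lower in KO in normal culture at −1.21 ± 0.06, and so was the activator Fzr1, or Cdh1, at −0.58 ± 0.04. Of 20 inner kinetochore genes 8 rose and 5 fell in wild-type and 6 rose and 8 fell in KO cells, where Cenps fell by 1.23 ± 0.07 and Cenpm by 1.08 ± 0.09. Of 19 other outer kinetochore and checkpoint genes 8 rose and 8 fell in wild-type and 5 rose and 12 fell in KO cells. In that list the checkpoint-linked protein Zwint was lower in KO in normal culture at −0.73 ± 0.04, and the Mad2 relative Mad2l2 was higher at 1.09 ± 0.07.

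Condensin and cohesin, which shape and hold chromosomes, had nearly equal counts in the directions with pausing, but more rises without scaling factors. Of 8 condensin genes 3 rose and 3 fell in wild-type cells and 2 rose and 3 fell in KO cells, and of 13 cohesin genes 4 rose and 4 fell, and 4 rose and 5 fell. Esco2, the acetyltransferase that makes sister cohesion, fell by 0.44 ± 0.05 and 0.94 ± 0.05. Of 19 centrosome genes 6 rose and 7 fell in wild-type and 4 rose and 8 fell in KO cells. The centriole gene Stil rose by 0.94 ± 0.07 and 0.60 ± 0.07, and Cenpj, another centriole gene, was 1.60 ± 0.05 higher in KO in normal culture. Of 16 other mitotic kinesins and midbody genes 9 rose and 3 fell in wild-type and 5 rose and 6 fell in KO cells. The midbody kinase Cit rose by 0.79 ± 0.06 in wild-type cells, and Kif14 was 0.85 ± 0.04 higher in KO in normal culture.

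Genes of earlier phases were counted in the same way, and their difference from the mitotic genes was not tested. Of 41 DNA replication genes 27 fell and 6 rose in wild-type cells, with a median of −0.25, and 35 fell and 3 rose in KO cells, with a median of −0.39. Rrm2, the small subunit of ribonucleotide reductase, fell by 0.99 ± 0.03 in wild-type and 1.39 ± 0.03 in KO cells. Of 15 G1 cyclins and their kinases 9 fell and 4 rose in wild-type and 12 fell and 1 rose in KO cells, with medians of −0.23 and −0.71. Ccne1, the cyclin that fires S phase, fell by 1.14 ± 0.08 and 2.69 ± 0.08. Between genotypes in normal culture 21 replication genes were higher in KO and 8 lower, against 34.1% of all genes in each direction. In paused culture 9 were higher and 17 lower, against 30.8% and 34.5%, and the responses passed the test above 0 for 2 and below 0 for 22.

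Without scaling factors 8223 of all 18944 genes rose and 3665 fell in wild-type and 8284 and 4638 in KO cells. The counts of rises and falls in these lists then moved upwards as well. In wild-type cells they were 9 and 2 for the transcription factors, 5 and 5 for mitotic entry, 5 and 6 for the anaphase-promoting complex, 11 and 2 for the inner and 10 and 5 for the other outer kinetochore genes. Condensin had 4 and 0, cohesin 9 and 3, the centrosome 9 and 4 and the other kinesins 12 and 3. In KO cells the same lists had 9 and 3, 4 and 7, 4 and 10, 9 and 4, 7 and 6, 5 and 1, 8 and 3, 9 and 6, and 10 and 2. More genes still fell than rose for replication, with 11 and 21 in wild-type and 4 and 28 in KO cells, and for the G1 genes, with 6 and 7 and 1 and 9.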

How the data were processed

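Poly(A) RNA libraries of 4 groups with 4 libraries each were used. The authors quantified transcripts with kallisto on GRCm38, per the submitters' processing notes; its version and settings are not given in the sources used here. Each deposited table gives the estimated counts and TPM that the authors obtained for every transcript, per the file headers. Of 118489 transcripts 116728 matched GENCODE M21 and were summed to 35968 genes; 1761 did not match and were left out. Sums were rounded and tested with edgeR 4.0.16 (R 4.3.3): filterByExpr with a minimum count of 10, TMM scaling, 1 mean per group and robust quasi-likelihood F tests, with Benjamini-Hochberg adjustment over 18944 genes and a threshold of 0.05. SE is the log2 fold change divided by the root of F. The pipeline was tested on simulated data. The 40 genes and the other lists were chosen with earlier results of these data known. Values in every library are given for up to 5 genes per direction and comparison with the largest changes past the threshold, and for 11 genes named by role; up to 3 genes per comparison are named from other lists. Alternatives covered DESeq2 1.42.0, scaling, filters, a replicate block, subsets of libraries and the transcripts counted. Depth limits these values little, since each gene had at least 791 counts in every library.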

Additional observations from a re-analysis of the deposited data

Results flagged for a closer look

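In 5 of the 160 sets of 4 libraries examined (40 genes in 4 groups), 1 library stood off from the other 3 beyond the 95% limit of Dixon's test, and chance alone gives about 1 in 20. They were Cdk1 in KO normal replicate 3 at 89.15 CPM, Incenp in wild-type normal replicate 2 at 259.2, Nuf2 in wild-type normal replicate 1 at 54.09, Hmmr in KO paused replicate 3 at 116.3, and Kif23 in KO paused replicate 4 at 105.4 CPM.

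The responses to pausing differed between the genotypes for 25 genes, by edgeR's test of the difference, against 41.9% of all genes. KO minus wild type, the log2 differences were −0.12 for Ccna2, −0.35 for Ccnb1, −0.66 for Ccnb2 and −0.60 for Cdc25b among the Cdk1 genes. Aurkb had −0.33. At kinetochores and the checkpoint they were −0.42 for Bub1, −0.38 for Bub1b, −0.40 for Ttk, −0.15 for Mad2l1, −0.75 for Cenpa, −0.31 for Nuf2, −0.34 for Spc25 and 0.26 for Ndc80. On the spindle they were −0.38 for Kif2c, −0.14 for Tpx2, 0.13 for Nusap1 and 0.29 for Hmmr. In anaphase and cytokinesis they were −0.30 for Ube2c, −0.41 for Espl1, −0.44 for Kif23, −0.35 for Kif20a, −0.32 for Prc1 and 0.17 for Anln. Top2a had −0.39 and Mki67 −0.37. With protein-coding transcripts only the calls of Mad2l1 (−0.02, adjusted p = 0.76), Tpx2 (−0.10, 0.12) and Ccna2 (−0.09, 0.084) were lost. When 1 library was left out, the call was lost in 10 of 16 fits for Hmmr and in 7 for Nusap1. It was lost in 5 for Tpx2, in 4 each for Ccna2 and Mad2l1 and in 1 for Mki67.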

How the results depend on the processing

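Counts of called genes and their directions held within 1.5 times under most alternatives. Without scaling factors, an alternative chosen after seeing the data, 20 genes rose and 11 fell with pausing in wild-type cells and 12 rose in KO cells; calls over all genes were then 69.2% higher against 54.8% in wild-type and 64.1% against 51.2% in KO cells, and those among the 40 genes 64.5% against 40.6% and 37.5% against 17.6%. The number of genes with a response above that of wild-type cells, 4, became 2 with no filter on low counts, 7 in replicates 1 and 2 alone and 1 on length-scaled TPM counts, and 2 to 5 when 1 library was left out. It was 2 without replicate 1 of normal wild-type, replicates 1 or 2 of paused wild-type, replicates 3 or 4 of normal KO, or replicate 1 of paused KO cells.

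Directions reversed without scaling factors in wild-type pausing for Ccna2 (0.06), Aurkb (0.14), Incenp (0.05), Bub1b (0.10), Kif2c (0.04), Kif23 (0.14), Kif20a (0.01) and Anln (0.04), and in KO pausing for Ccnb2 (0.12), Cdk1 (0.04), Cdc25b (0.15), Ect2 (0.12) and Top2a (0.02), as the construction of this alternative adds the same amount to every gene. Spc25 (0.06) also changed sign there in wild-type pausing, with a call in neither fit. In replicates 1 and 2 alone Kif11 went to −0.11 in wild-type pausing and the Cenpf difference of responses to 0.26, while in replicates 3 and 4 alone they were 0.16 (adjusted p = 0.0014) and −0.38 (adjusted p = 6.5e-05); the cause was not tested. Counting protein-coding transcripts alone turned Cenpa in wild-type pausing to −0.32. Of the results for single genes under all alternatives, 4045 counted as unchanged, 146 lost significance, 73 gained it and 16 reversed. A reversal was counted only with a call in at least 1 of the fits compared. The 4045 therefore include changes of sign without a call in either fit.

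Leaving out 1 library in turn gave medians of −0.10 to −0.06 for wild-type pausing, −0.28 to −0.24 for KO pausing, −0.17 to −0.10 for the difference, 0.03 to 0.05 for KO against wild type in normal culture and −0.23 to −0.17 in paused culture. Leaving out 1 library ended 20 calls on single genes in at least 1 case, with adjusted p from 0.05 to 0.17. In KO against wild type in normal culture these were Anln, Aurka, Aurkb, Ccna2, Cdc25c, Ect2 and Ttk, and in paused culture Incenp and Kif23. In the difference of responses they were Ccna2, Hmmr, Mad2l1, Mki67, Nusap1 and Tpx2, in wild-type pausing Incenp, Kif2c and Ndc80, and in KO pausing Cdk1 and Kif11. The replicate numbers did not pair the libraries throughout: deviations of same-numbered libraries correlated between −0.264 and 0.412, and they were above 0.1 for every number in no comparison. Replicate 2 was nevertheless best matched by replicate 2 in every comparison, at 0.187 to 0.412. With the replicate block the counts were 14 higher and 20 lower for wild-type pausing, 6 and 28 for KO pausing, 3 and 22 for the difference, and 19 and 13, and 6 and 23, for genotype in normal and paused culture.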

Other observations

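The summed TPM of Ccna2, Ccnb1 and Ccnb2 per TPM of Cdk1 was 1.60 ± 0.09 (mean ± SD, n = 4) in wild-type cells in normal culture, 1.48 ± 0.02 in paused wild-type cells, 3.62 ± 0.07 in KO cells in normal culture and 2.98 ± 0.04 in paused KO cells. The highest wild-type library was at 1.71 and the lowest KO library at 2.95. The sum and Cdk1 were chosen after their values were seen, and no test was made.

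The 33 genes with a RefSeq promoter window were also read by whether any window of the gene held TTTGAA. With pausing in wild-type cells the 24 genes with it had a median log2 change of 0.00, with 9 rising and 9 falling, and the 9 genes without it had −0.16, with 3 rising and 5 falling. In KO cells the medians were −0.26, with 3 rising and 16 falling, and −0.36, with 2 rising and 6 falling. No test was made between these groups of genes.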
